A study of Mus musculus with 6 samples.

Results

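The regions described here are stretches of mouse liver chromatin where a peak of accessibility was called in the first and second double knockout libraries (dKO 1 and dKO 2) but in neither the third (dKO 3) nor any of the 3 control libraries. Peaks of the 6 lists on chromosomes 1 to 19 and X were merged wherever they shared at least 1 bp. This gave 109853 merged regions, and 4715 of them (4.29%) had this pattern. The choice used the presence of peaks in all 6 libraries, so the pattern and the values in dKO 1 and dKO 2 are a description and carry no test. A missing peak means that no peak passed the calling limits of that list; it does not show that the site was closed.

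The nuclei came from livers of male mice in which Ncor1 and another gene were floxed on both alleles (F/F). Control mice received an adeno-associated virus (AAV) that carries eGFP and dKO mice one that carries Cre recombinase, so both groups shared the floxed alleles, the sex, the AAV injection and the collection on day 5 after the AAV at ZT10, that is 10 h into the light phase. Hepatocyte nuclei were obtained by sorting on HNF4a, a transcription factor of these cells, and were used for Omni-ATAC, an assay in which the Tn5 transposase inserts adapters into accessible DNA. Each group had 3 libraries. Whether a library stands for 1 animal is not said in the labels. The promoter that drives Cre is also not given in the sources used here, nor are the floxed exons.

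NCOR1 is a corepressor that nuclear receptors recruit, together with the histone deacetylase HDAC3, to hold target genes in a less active state. In hepatocytes this machinery acts on genes of lipid, glucose and bile acid metabolism and of the circadian clock. Enhancers and promoters bound by transcription factors are commonly more accessible than the DNA around them, which is what an ATAC-seq peak marks.

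A small part of these regions lay on promoters. RefSeq promoter windows run from 250 bases before a gene start to 50 bases after it. Of the regions called in all 6 libraries, 15.7% overlapped 1 or more windows, and of those of every dKO and no control library 3.02%. Of the 4715 regions, 201 (4.26%) did. Of the stronger ones, 4 are printed because they show where such a peak sat on a promoter: at its far edge in Acadm (medium-chain acyl-CoA dehydrogenase, an enzyme of fatty acid oxidation) and Rab5a (a small GTPase of early endosomes), and within it in Aph1b (a subunit of gamma-secretase) and Pgrmc2 (a haem-binding membrane protein). They were picked after their values were seen. Each line gives the 250 bases before the gene start on the gene's strand, 5′ to 3′, from RefSeq for GRCm38.p6, the build of mm10, and capitals mark the bases inside the region called in dKO 1 and dKO 2 only.
Acadm, chr3:153944644-153944893, minus strand: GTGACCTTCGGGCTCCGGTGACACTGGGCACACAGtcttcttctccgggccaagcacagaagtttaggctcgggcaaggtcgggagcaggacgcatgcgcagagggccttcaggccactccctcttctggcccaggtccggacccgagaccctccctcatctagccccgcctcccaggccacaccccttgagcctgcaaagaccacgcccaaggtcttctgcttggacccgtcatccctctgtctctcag
Rab5a, chr17:53478984-53479233, plus strand: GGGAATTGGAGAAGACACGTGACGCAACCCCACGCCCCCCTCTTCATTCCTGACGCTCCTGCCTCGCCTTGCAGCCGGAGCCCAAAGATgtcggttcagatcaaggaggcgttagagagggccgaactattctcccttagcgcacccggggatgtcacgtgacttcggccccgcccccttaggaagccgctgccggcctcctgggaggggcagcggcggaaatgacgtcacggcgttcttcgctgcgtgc
Aph1b, chr9:66795424-66795673, minus strand: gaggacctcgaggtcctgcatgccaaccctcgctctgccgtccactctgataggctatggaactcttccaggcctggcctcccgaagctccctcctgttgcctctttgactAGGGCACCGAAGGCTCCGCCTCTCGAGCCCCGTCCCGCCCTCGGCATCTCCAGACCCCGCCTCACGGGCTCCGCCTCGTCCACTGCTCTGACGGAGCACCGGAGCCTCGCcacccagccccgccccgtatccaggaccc
Pgrmc2, chr3:41083047-41083296, minus strand: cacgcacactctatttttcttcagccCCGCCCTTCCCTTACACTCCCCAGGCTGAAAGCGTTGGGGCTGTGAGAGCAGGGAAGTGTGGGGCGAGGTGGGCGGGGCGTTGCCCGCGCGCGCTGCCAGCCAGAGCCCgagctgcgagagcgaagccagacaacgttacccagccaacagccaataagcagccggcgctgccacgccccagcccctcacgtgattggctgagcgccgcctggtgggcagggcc
The normalized tag count, the deposited signal of a peak, was 66.3 in dKO 1 and 63 in dKO 2 at Acadm, where 35 bases of the region reached into the window. At Rab5a the region covered 89 bases of the window and had 48.4 and 48.3. The Aph1b region had 45.9 and 42.1 and its 110 bases in the window held GGGCGG, the core of a GC box, on 1 strand or the other. The Pgrmc2 region had 39.5 and 41.7. Each of these regions also had peaks of dKO 3 and of the controls close by. The nearest dKO 3 peak lay 160 bp from the region at Acadm, 163 bp at Rab5a, 212 bp at Aph1b and 25 bp at Pgrmc2. A control peak lay nearer than that at Acadm (13 bp), Rab5a (104 bp) and Aph1b (155 bp). At Pgrmc2 a control peak lay within 300 bp, farther away than the dKO 3 peak.

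The 6 lists differed in ways that bear on this pattern. They held 68316 to 84614 peaks, and no peak had a score under 35.5 or stood less than 4-fold above its local surroundings. The peaks of dKO 3 and control 3 were 172 bp wide and those of control 2 166 bp, apart from 1 peak in control 3. Control 1, dKO 1 and dKO 2 shared a narrower width, and dKO 3 peaks were 1.59 times as wide as dKO 1 peaks. Among the dKO libraries, peak width and the presence of the peak therefore cannot be told apart. Control 1 had the narrow width and also lacked the peak, by the rule. The lowest values of each list lay on a regular step. If a step is 1 tag, depth differed by up to 1.27 times and the lowest called peaks held 56 to 59 tags. Over regions called in all 6 libraries, the first principal component took 61.5% of the variance and placed dKO 1 and dKO 2 at 63.5 and 53.6, dKO 3 at 12.7 and the controls between -48.4 and -36.3.

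Among regions with a peak in exactly 2 libraries, the pair of dKO 1 and dKO 2 had the most. The next pairs were control 1 with dKO 1 (1360 regions), control 2 with control 3 (1030) and control 1 with control 3 (939). Pairs of dKO 3 with another dKO library were few, 276 with dKO 1 and 338 with dKO 2. Regions called in each of the 3 dKO libraries and in no control numbered 1723. Of the 6438 regions that had a peak in dKO 1 and dKO 2 and in no control, 73.2% had none in dKO 3. A further 5093 regions had a peak in dKO 1, dKO 2 and control 1 only, which are the 3 lists with narrow peaks.

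**Figure D1:**
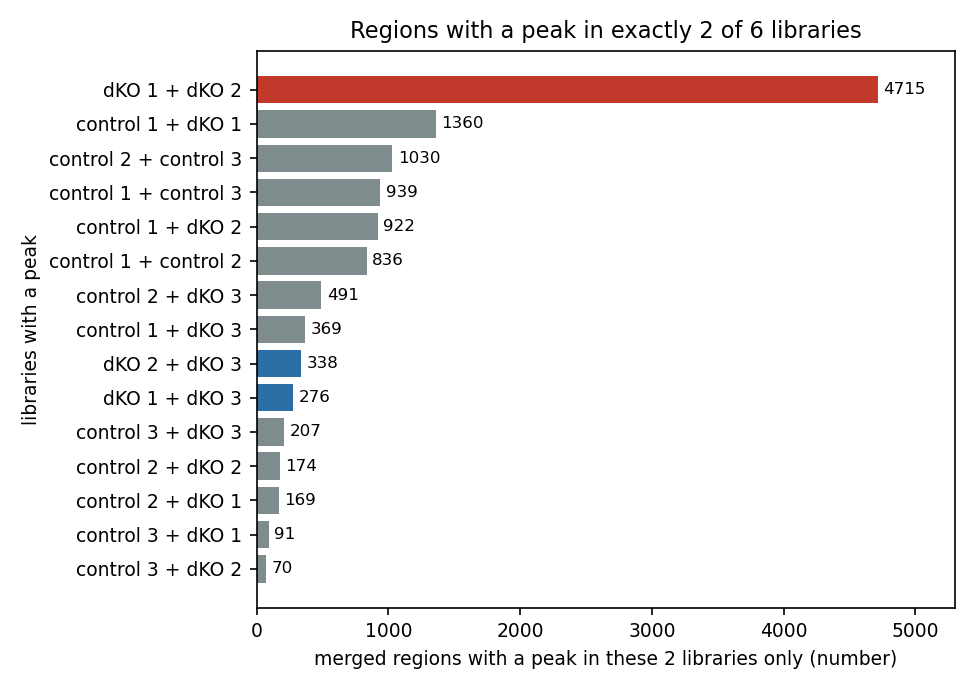
Number of merged regions (horizontal axis) with a peak in exactly 2 of the 6 libraries, for each of the possible pairs (vertical axis). The pair of dKO 1 and dKO 2, in red, had 4715 regions, and the other dKO pairs, in blue, had 276 and 338.

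Most of these peaks were weak. The normalized tag count in dKO 1 had a lowest value of 3.73, a median of 8.74 and a highest of 119.7. In dKO 2 the lowest was 3.24, the median 6.9 and the highest 95.8. If a step is 1 tag, the median region rested on 150 tags in dKO 1 and 132 in dKO 2. Only 30.9% were above the median peak of the dKO 1 list, and 28.2% were above that of dKO 2. Regions called in all 6 libraries had medians between 13.5 and 17.4 in the 6 libraries.

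The values of dKO 1 and dKO 2 tracked each other. Over the 4715 regions the Pearson correlation of log2(value + 1) was 0.93 and Spearman's rho 0.89, as a description of sites that share their libraries and a lower calling limit. The value was higher in dKO 1 at 3851 regions (81.7%), with a median ratio of dKO 1 to dKO 2 of 1.18. The same ratio was 1.12 over regions called in all 6 libraries.

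**Figure D2:**
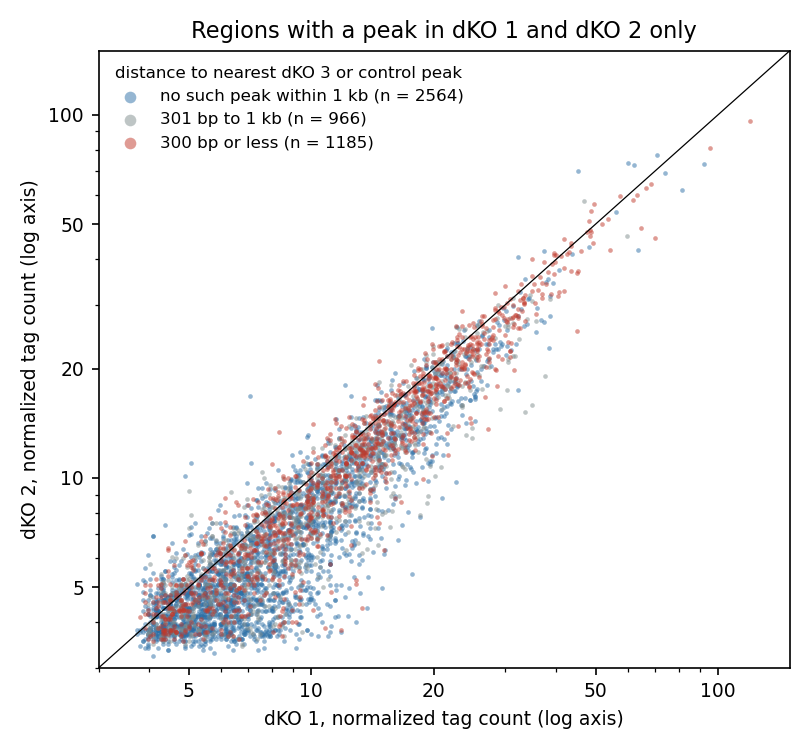
Normalized tag count of each of the 4715 regions in dKO 1 (horizontal, log axis) and dKO 2 (vertical, log axis), coloured by the distance to the nearest peak of dKO 3 or a control; the line marks equal values. The median is 8.74 in dKO 1 and 6.9 in dKO 2, most points lie below the line, and points within 300 bp of another list's peak reach the highest values.

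Set against the lowest value that the dKO 3 list contains, the regions spread widely. In 4654 of them (98.7%) both dKO values were at least that low limit, in 2225 (47.2%) both were at least 2 times it and in 788 (16.7%) at least 4 times it. Both values were above the median dKO 3 peak of 13.4 in 898 regions (19.0%). A dKO 3 peak was called in the 1723 regions of every dKO and no control library. There its value was a median 0.845 times that of dKO 1 and 1.08 times that of dKO 2. Over regions called in all 6 libraries these ratios were 1.18 and 1.31. These 2 sets were chosen in part by the dKO 3 peak, so the ratios describe them only.

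By the mean of both values the weakest region, in Nin (a centrosomal protein), had 3.79 in dKO 1 and 3.45 in dKO 2. Next came regions in Arntl, the clock activator also called BMAL1, with 3.91 and 3.4, and in Dmxl1 with 4.08 and 3.24. Just outside the pattern were regions that also had a very weak dKO 3 peak. The region 29577 bp from Gc, the vitamin D binding protein, had 7.87, 6.12 and 3.83 in dKO 1, 2 and 3. One near Lratd2 had 9.97, 6.79 and 3.83, and one in Pde3a, a phosphodiesterase, had 7.99, 3.55 and 3.89. Where no dKO 3 peak was called the list gives no dKO 3 value, so the difference between these regions and the ones described here was not measured.

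The peaks also stood little above their surroundings. The fold over the local surroundings, a ratio that the authors' lists give for each peak, had a median of 5.81 in dKO 1 and 5.16 in dKO 2, close to the lowest value listed. It was under 5 in 30.5% of the regions in dKO 1 and in 44.5% in dKO 2. Regions with a peak in every dKO and no control library had medians of 9.09, 7.61 and 5.41 in dKO 1, 2 and 3. Regions called in all 6 libraries had 14.3 in dKO 1 and 13.2 in dKO 2. The regions shared with control 1 only had 6.02 and 5.61 in those libraries. A local fold of at least 6 in both dKO 1 and dKO 2 was found at 1487 regions (31.5%).

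**Figure D3:**
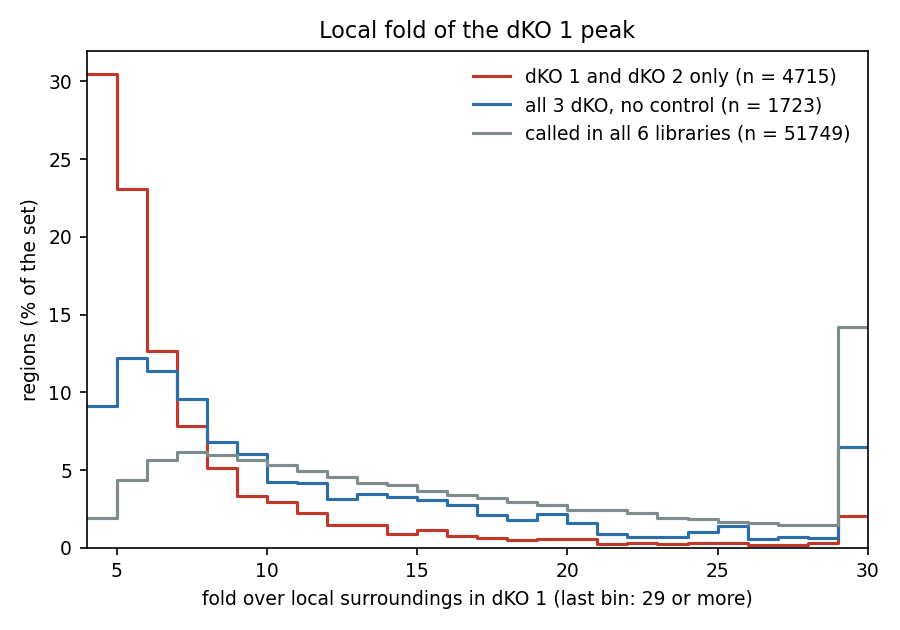
Share of regions (vertical axis, % of each set) by the fold of the dKO 1 peak over its local surroundings (horizontal axis, in steps of 1, the last open). Regions called in dKO 1 and dKO 2 only pile up near the lowest value of 4, with a median of 5.81, against 9.09 for regions of every dKO and no control and 14.3 for regions called in all 6.

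Many of the regions lay beside a peak of another list. A dKO 3 peak lay within 300 bp of 975 regions (20.7%), within 1 kb of 1942 (41.2%) and within 10 kb of 4198 (89.0%), at a median of 1642 bp. A control peak lay within 300 bp of 1137 (24.1%), at a median of 1354 bp. Regions of every dKO and no control library were farther from a control peak, with 10.2% within 300 bp and a median of 3917 bp. No peak of dKO 3 or of a control lay within 1 kb of 2564 regions (54.4%). The median of the lower dKO value was 5.54 in those and 8.57 in the rest.

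**Figure D4:**
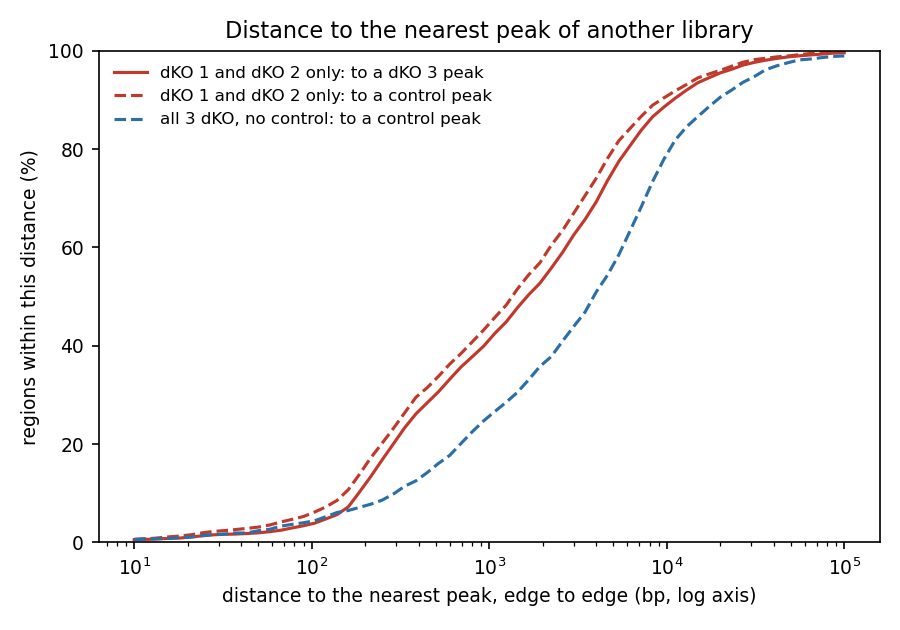
Cumulative share of regions (vertical axis, %) with a peak of another library within the distance on the horizontal axis (bp, log axis). The curves of the regions called in dKO 1 and dKO 2 only reach 20.7% for dKO 3 peaks and 24.1% for control peaks at 300 bp, above the 10.2% of regions called in every dKO and no control.

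The stronger a region was, the more often it had such a neighbour. A dKO 3 peak lay within 300 bp of 12.2% of the 1571 regions with a mean of both values under 6. The share was 25% of the 1270 regions with a mean of 10 to 20, and 69.6% of the 46 regions with a mean of 40 or more. The lists also differed in how close 2 of their own peaks could lie. The smallest distance between peak centres was 141 bp in dKO 1 and 162 bp in dKO 2, and 305 bp in dKO 3. Pairs of neighbouring peaks under 300 bp apart numbered 1446 and 1461 in dKO 1 and dKO 2, 1423 in control 1, and 0 in dKO 3. The centre of 330 regions (7.0%) lay closer to a dKO 3 peak centre than any 2 peaks of the dKO 3 list. Over all 3 lists with wide peaks, 457 regions lay inside the spacing of at least 1 list and 4258 outside that of every list. The part of peak width and spacing in the pattern was not tested.

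The 10 strongest regions, ranked by the lower of their dKO values, show both situations. At 5 of them a region called in all 6 libraries lay within 300 bp. The strongest was in Sfi1 (a centrosome component; chr11:3146771-3146880) with 119.7 in dKO 1 and 95.8 in dKO 2. A dKO 3 peak of 153.2 lay 76 bp away, and control peaks of 100, 119.1 and 119.2 lay 76 to 114 bp away. No mask of repeated or artefact-prone sequence was applied when the lists were merged. At Zhx1, a zinc finger and homeobox factor, the region 289 bp from the gene had 63 and 60.1, and peaks of 97.1 to 105.6 in the other 4 lists lay 66 to 129 bp away. Neighbouring peaks were also called in all 4 other lists at Gys1 (glycogen synthase; 95.6 and 80.9, with peaks of 119.8 in dKO 3 and 70.1, 101.3 and 71.8 in the controls 183 to 276 bp away) and at Acadm, described above, where the dKO 3 peak had 95.9. Garem1, an adaptor of growth factor signalling, had 68.3 and 64.6 and a dKO 3 peak of 113.2 at 217 bp. All 4 other lists thus had a stronger peak beside the Zhx1, Acadm and Garem1 regions.

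The other 5 had no peak of dKO 3 or a control within 1 kb. A second region in Sfi1 had 92.2 in dKO 1 and 73.3 in dKO 2, with peaks of 145 to 221.6 in the other 4 lists 1362 to 1384 bp away. Txnip, which encodes a thioredoxin-binding protein that restrains glucose uptake, had a region inside the gene (chr3:96560618-96560735) with 70.7 and 77.3. The nearest dKO 3 peak, of 34.2, lay 5335 bp away, and the fold over the local surroundings was 4.01 and 4.73. Plin2, a coat protein of lipid droplets, had 81.5 and 61.9 with local folds of 4.22 and 4.38. Apoc1, an apolipoprotein, had 62.2 and 72.9, and Txnl4b had 74 and 69.2. In these 4 genes the local fold ranged from 4.01 to 5.05, so high tag counts came with surroundings that were also high.

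At 800 regions (17.0%), whatever their tag count, no peak of dKO 3 or a control lay within 1 kb and the local fold was at least 6 in both libraries. Among the strongest of these, looked up after their values were seen, was one 2218 bp from Hadh, an enzyme of fatty acid oxidation, with 31.9 in dKO 1 and 23.4 in dKO 2. A region in Cyp7a1, the rate-limiting enzyme of bile acid synthesis from cholesterol, lay 159 bp from an end of the gene (chr4:6265707-6265836) and had 25.4 and 21.1 with local folds of 6.9 and 6.66. The nearest peaks of the other 4 lists lay 2645 to 2733 bp away, with 32.3 to 48.1. Smarca4, the ATPase of a chromatin remodelling complex, had 25.4 and 17.3, and Wnt5b, a Wnt ligand, had 17 and 17.

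By position, the regions were mostly inside genes. Of the 4715, 3105 (65.9%) lay inside the span of a protein-coding gene, against 59.2% of all merged regions, and 781 (16.6%) lay within 1 kb of a gene end, against 18.5%. The share within 1 kb of a gene end was 9.46% for regions of every dKO and no control library and 31.2% for those shared with control 1 only. It depended on strength, from 6.43% of the regions with a mean under 6 to 71.7% of those with 40 or more. Regions called in all 6 libraries ran from 8.44% to 63.7% over the same classes. In the 2564 regions with no peak of dKO 3 or a control within 1 kb it was 4.45%. Chromosomes held similar shares, from 3.35% of the merged regions on X to 4.90% on chromosome 6. No protein-coding gene lay within 50 kb of 430 regions (9.12%).

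The regions were linked to 3138 genes, the nearest within 50 kb, and 2413 of these had 1 region. The gene with the most was Egfr, the epidermal growth factor receptor, which in liver relays growth signals. Of its 32 merged regions 10 (31.3%) had a peak in dKO 1 and dKO 2 only, 0 had one in every dKO and no control, and 5 were called in all 6 libraries. The 10 regions ran from chr11:16702747 to 16900942, with 4.9 to 23 in dKO 1 and 5.07 to 21 in dKO 2. The strongest, at 16752592 and 453 bp from a gene end, had 23 and 21, with a dKO 3 peak 365 bp and a control peak 363 bp away. One at 16784303 had 21.6 and 19.3 with local folds of 11.53 and 9.1. Its nearest dKO 3 peak was 16130 bp away and its nearest control peak 6595 bp. Another at 16766564 had 18.1 and 18.8, with a dKO 3 peak 14337 bp away and a control 2 peak 2624 bp away.

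Ttc39c had 7 of 24 regions, with 13.1 to 38.3 in dKO 1 and 11.3 to 27.9 in dKO 2. The nearest dKO 3 peak was 251 bp from one of them and 4616 to 38395 bp from the other 6. The nearest control peak was 166 bp from that same region and 2177 to 26427 bp from the other 6. Cers6, a ceramide synthase, had 9 of 51, and 5 of these followed each other between chr2:68896301 and 68912727 in the largest group of neighbouring regions. These 5 had 6.41 to 10 in dKO 1 and 5.8 to 10 in dKO 2, and no dKO 3 peak within 1715 bp. Atxn1, which encodes the chromatin-associated protein ataxin 1, had 9 of 47, all under 10 in both libraries. Pde4d, a cyclic AMP phosphodiesterase, had 8 of 99, with 4.31 to 9.79 in dKO 1 and 3.76 to 5.49 in dKO 2. Runs of 4 regions lay at Znrf2 (5.54 to 11 in dKO 1) and at the tetraspanin gene Tspan9 (14.3 to 21.9). In all, 771 regions (16.4%) had another within 10 kb, in 366 groups of which 34 had 3 or more.

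In the list of the corepressor complex and coactivators, 7 of 14 genes had the pattern, Hdac3 not among them. Of the nuclear receptor genes, 10 of 28 had it. Over all genes with a merged region linked to them, 3138 of 16640 had it. These lists held 197 and 441 merged regions, so gene counts here and below also depend on the number of regions per gene. The share of all merged regions with the pattern was 4.29%, and the gene lists below are read against it as a description, since the rule used the same contrast. At Ncor1 itself, 1 of 16 regions had the pattern, a weak one at chr11:62442198 with 8.39 in dKO 1 and 7.42 in dKO 2. A dKO 3 peak and a control peak each lay 966 bp from that region. The list of the NCOR1 and HDAC3 complex with coactivators had 11 of 197 (5.58%). They included 3 regions linked to Tbl1x, a subunit of the complex, with 4.9 to 14.1 in dKO 1. Tbl1xr1, its relative, had 20.2 and 14.7, and its nearest peaks in the other 4 lists lay at least 3110 bp away. Ncoa2, a coactivator, had 3, all under 7 in both libraries.

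Nuclear receptors had 25 of 441 (5.67%). Rxra encodes RXRα, the partner with which many receptors bind DNA. It had 4 of 21 regions with the pattern and 2 called in all 6 libraries. The strongest, at chr2:27702404-27702543, had 43.8 in dKO 1 and 41.4 in dKO 2, and one at 27703471 had 40.6 and 37.4. The nearest dKO 3 peaks lay 30352 and 31419 bp from them and the nearest control peaks 15775 and 14738 bp. Their local folds were 6.1 and 5.74 in dKO 1 and 5.17 and 4.94 in dKO 2. Rarb, a retinoic acid receptor, had 6 regions with 5.36 to 21.4 in dKO 1, Rora, a clock-related receptor, had 5 with 4.66 to 8.63, and Thrb, a thyroid hormone receptor, had 3 with 8.92 to 15.4. Nr1h4, the bile acid receptor FXR, had 1 with 25.3 and 16.8, and Ppara, which drives fatty acid oxidation, had 1 with 24.7 and 20.8.

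The glucocorticoid receptor and its targets had 15 of 278 (5.4%). Errfi1, an inhibitor of EGF receptor signalling, had the strongest, 2943 bp from the gene, with 45.2 in dKO 1 and 70 in dKO 2 and the nearest other peak, of control 1, 16559 bp away. Lpin1, a phosphatidate phosphatase, had 4 regions with 6.94 to 21.6 in dKO 1, and Pdk4, an inhibitor of pyruvate dehydrogenase, had 3 with 9.38 to 20.8. The gene of the receptor, Nr3c1, had 1 with 7.64 and 8.26. Fkbp5 had 2 of 23, both under 7 in both libraries, while Tat had 0 of 7 and Per1 0 of 6.

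Insulin and growth hormone signalling had the highest share of the lists, 27 of 306 (8.82%), at 12 of its 18 genes. Pik3r1, the regulatory subunit of PI3 kinase, had 5 with 8.74 to 18.2 in dKO 1. Ghr, the growth hormone receptor, Igf1, the growth factor it induces, Irs2, an insulin receptor substrate, Pik3ca and Trib1 had 3 each. Of this list, 18 of the 27 regions had no peak of dKO 3 or a control within 1 kb. The strongest was at Trib1, a pseudokinase that lowers plasma lipids, with 57.4 and 59.6. A dKO 3 peak of 90.2 lay 65 bp from it, and control peaks of 91.4 to 95.8 lay 61 to 95 bp away. Of the 306 regions 1 had a peak in every dKO and no control, a pattern held by 1.57% of all merged regions.

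Genes of the circadian clock had 12 of 164 (7.32%), at 8 of 14 genes. Nfil3, a repressor of clock output genes, had 3, of which one had 30.3 in dKO 1 and 26.8 in dKO 2. A dKO 3 peak of 50.1 lay 195 bp from that region, and control peaks of 45.8 to 52.4 lay 170 to 198 bp from it. Per2, a repressor of the core loop, had 23.7 and 25.5. Its nearest dKO 3 peak was 1627 bp away and its nearest control peak 1601 bp. Ciart, Cry1, Cry2 and Npas2 had 1 each, with 16.3 to 20.3 in dKO 1 and 14.6 to 18.8 in dKO 2. Of the 12 regions 4 had no peak of dKO 3 or a control within 1 kb.

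In gluconeogenesis the share was 3.54% (8 of 226), below that of all regions. G6pc, glucose-6-phosphatase, had 2 of its 11 regions, 466 and 924 bp from the gene, with 35.6 and 40.6 in dKO 1 and 27 and 32.4 in dKO 2. The stronger lay 174 bp from a dKO 3 peak of 64.1, and the control peaks beside it had 45.9, 83.2 and 23.3. Fbp1, fructose-1,6-bisphosphatase, had 2, with 26.8 and 23.3 at the one and 23.1 and 25.7 at the other. Pck1, which starts the pathway from oxaloacetate, had 0 of 5, Ppargc1a, a coactivator of the pathway, 0 of 28 and Klf15 0 of 15.

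Lipid genes ranged around the overall share. Lipid droplet and lipase genes had 8 of 107 (7.48%), led by Plin2 (above) and by Mgll, monoacylglycerol lipase. The stronger Mgll region had 37.8 in dKO 1 and 34.2 in dKO 2, with a dKO 3 peak 52 bp and a control peak 45 bp away. Fatty acid oxidation and ketogenesis had 9 of 148 (6.08%), led by Acadm. Sterol synthesis and uptake had 9 of 160 (5.63%). Its strongest was 356 bp from Sqle, squalene epoxidase, with 49.3 and 44.4, beside peaks of 58.3 to 77.9 in the other 4 lists 97 to 120 bp away. Insig1, which retains the sterol sensor in the endoplasmic reticulum, had 3 with 15.2 to 38.7 in dKO 1. De novo lipogenesis had 7 of 198 (3.54%), led by Thrsp, a lipogenic gene induced by thyroid hormone, with 60 and 73.5 and no other peak within 6451 bp. Bile acid synthesis and transport had 6 of 119 (5.04%): 2 at Cyp7a1, 2 at Abcb11, the bile salt export pump, and 1 each at Cyp7b1 and Slco1a1.

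The remaining lists had 5.95% for amino acid catabolism and the urea cycle, 5.29% for hepatocyte identity factors, 4.67% for cell stress and p53, 3.5% for acute phase and inflammation, and 2.58% for xenobiotic metabolism. Their strongest regions were at Arg1, an enzyme of the urea cycle (30.5 in dKO 1 and 26 in dKO 2), and Foxa1, a pioneer factor (24.6 and 23.3). The others were at Nfe2l2, the antioxidant regulator NRF2 (34.3 and 31.2), Fgb, a fibrinogen chain (56.2 and 53.9), and Cyp2a5 (64.6 and 48.9). Beside Cyp2a5 a dKO 3 peak of 71.1 lay 156 bp away and control peaks of 14.7 to 41.8 lay 81 to 267 bp away. A control 1 peak of 30.8 lay 142 bp from the Foxa1 region. Control peaks of 43.6 to 54.5 lay 773 to 805 bp from the Arg1 region. At Nfe2l2 and Fgb the nearest other peak lay 1478 and 1358 bp away. Of the 16 lists 12 were above the overall 4.29%. The pattern of control 1, dKO 1 and dKO 2 only, held by 4.64% of all merged regions, also occurred in these lists. It had 19 of 306 for insulin and growth hormone signalling, 3 of 107 for lipid droplets and lipases, and 8 of 164 for the clock. It had 5 of 148 for fatty acid oxidation, 15 of 185 for amino acid catabolism and 25 of 441 for nuclear receptors. Sterol synthesis and uptake had 16 of 160, de novo lipogenesis 15 of 198, hepatocyte identity factors 13 of 170 and gluconeogenesis 9 of 226. Glucocorticoid receptor and targets had 16 of 278, bile acid genes 7 of 119, acute phase 9 of 200 and cell stress 7 of 107. The corepressor complex and coactivators had 7 of 197 and xenobiotic metabolism 3 of 155. The lists were not tested against other genes.

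**Figure D5:**
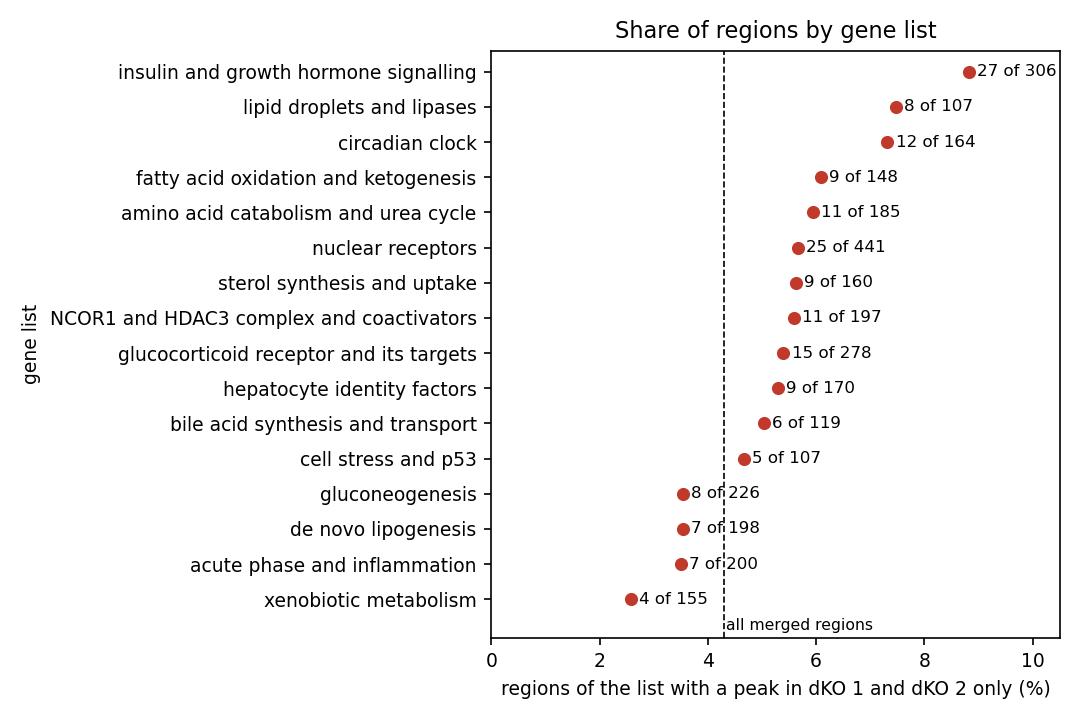
Share of merged regions linked to each gene list that had a peak in dKO 1 and dKO 2 only (horizontal axis, %), with the number of such regions of all regions of the list; the dashed line is the share over all merged regions, 4.29%. Insulin and growth hormone signalling is highest at 8.82% and xenobiotic metabolism lowest at 2.58%.

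Marker genes of liver cell types were checked in all libraries. Peaks within 1 kb of hepatocyte marker genes were found at 6 to 9 of 9 genes in the controls and at 7 to 9 in dKO, with summed values of 560.2 to 1145 and 566 to 780. Endothelial markers had peaks at 10 of 10 genes in every library, with sums of 342 to 483 in the controls and 281 to 451 in dKO. Stellate sums were 80.9 to 105 and 61.0 to 98.6, cholangiocyte sums 175 to 201 and 178 to 246, Kupffer cell sums 26.5 to 38.1 and 20.6 to 35.7, and lymphocyte sums 66.9 to 69.1 and 43.3 to 53. The lymphocyte sums, which rested on 1 gene, Cd4, were lower in every dKO library than in every control. For endothelial and stellate markers the group ranges overlapped through dKO 3 alone. Endothelial sums were 281 in dKO 1 and 304 in dKO 2, below all controls, and 451 in dKO 3. Stellate sums were 61.0 in dKO 1 and 64.7 in dKO 2, again below all controls, and 98.6 in dKO 3. In these lists dKO 3 thus stood apart from dKO 1 and dKO 2. Hepatocyte sums were 566, 780 and 697 in dKO 1, 2 and 3, and Kupffer cell sums 35.7, 20.6 and 33.7, without that division. Cholangiocyte sums were 187, 178 and 246 and lymphocyte sums 50.8, 43.3 and 53, highest in dKO 3. Of the Kupffer cell and macrophage list, Csf1r had a peak in every library and Ptprc in control 1, control 2 and dKO 3. The other genes of that list, among them Adgre1, Clec4f, Vsig4 and Timd4, had no peak in any library. Of the lymphocyte list, Cd4 had a peak in every library and the others, among them Cd3e and Ms4a1, had none. Of the merged regions linked to hepatocyte markers, 3 of 80 had a peak in dKO 1 and dKO 2 only, against 4.29% of all merged regions. The counts were 0 of 81 for endothelial, 0 of 22 for stellate, 2 of 51 for cholangiocyte, 1 of 15 for Kupffer cell and 3 of 18 for lymphocyte markers. In pooled nuclei, fewer nuclei of a type and less open sites per nucleus cannot be told apart, and the part of other cell types in the pattern was not tested.

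Promoters touched by the regions were examined for base content and motifs. The 201 regions overlapped 216 of 32619 promoter windows, and 80 of these (37.0%) were also overlapped by a region called in all 6 libraries. By comparison 15.7% of the regions called in all 6 libraries and 3.02% of those of every dKO and no control overlapped a window. The windows were 60.0% G and C, against 61.9% of those touched by regions called in all 6 and 53.9% of all windows. Letters were searched on both strands of each window as a description. AGGTCA, the core to which many nuclear receptors bind, was in 17.1% of the 216 windows, in 12.6% of the windows of regions called in all 6 and in 16.2% of all windows. TGTTCT, the core of a glucocorticoid response element, was in 15.7%, 11.6% and 19.0%. CACGTG, the E-box that clock and other basic helix-loop-helix factors bind, was in 13.9%, 10% and 7.2%, and TGANTCA, the AP-1 site, in 9.26%, 4.34% and 7.85%. GGGCGG was in 52.3%, 67.6% and 35.9%. Of the sequences printed above, Acadm has AGGTCA on the reverse strand and Rab5a has CACGTG inside the bases of the region. Sequence of the regions away from promoters was not used here.

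Regions called in all 6 libraries allow a comparison of dKO with control that includes dKO 3. It shares the contrast used by the rule and is given as a description beside the background. Over all 51749 such regions, limma at a Benjamini-Hochberg adjusted p of 0.05 called 8.19% higher in dKO and 11.6% lower. Within 10 kb of a region called in dKO 1 and dKO 2 only there were 6104 of them, with 601 (9.85%) higher and 876 (14.4%) lower. With quantile normalization these were 657 higher and 568 lower, which turns the balance. Without dKO 2 the counts were 196 and 212, and without dKO 1 253 and 304. Within 2 kb, 8.20% were higher and 16.1% lower, with a median log2 difference of -0.11. Relative to the controls, the median log2 difference of shared regions within 10 kb was -0.11 in dKO 1, -0.07 in dKO 2 and -0.02 in dKO 3, and over all shared regions -0.07, -0.01 and 0.01.

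Single shared regions near them were much higher in all 3 dKO libraries, dKO 3 included, and the 5 with the smallest adjusted p are given. At Txnip, a region at chr3:96566758-96566954, 6180 bp from the one described above, had 11.2, 15.3 and 11.7 in controls 1 to 3 and 40.6, 29.4 and 37.5 in dKO 1 to 3. The groups did not overlap, and the mean was 12.7 ± 2.24 in control and 35.8 ± 5.78 in dKO (SD, n = 3 each), a log2 difference on the log2(value + 1) scale of 1.48 (SE 0.15, limma adjusted p = 0.000403). In Grk5, a kinase that desensitizes G protein-coupled receptors, the controls had 3.73, 4.02 and 3.98 and the dKO libraries 15.2, 10.4 and 12.6, a log2 difference of 1.53. In Smim14 the controls had 9.53, 6.8 and 6.78 and the dKO libraries 38.2, 26.4 and 23.2, a log2 difference of 1.84. A region 25749 bp from Zfp184, a zinc finger gene, had 19.9, 19 and 29.8 against 56.7, 57 and 61.6 (1.40). The last, at chr3:21825330-21825584 with no protein-coding gene within 50 kb, had 4.63, 4.02 and 4.49 against 17.1, 14.2 and 13.4 (1.62). In each of the 5, the value of dKO 3 was above all controls. They were chosen by the smallest adjusted p of a contrast that includes dKO 3, so this follows in large part from the choice. The neighbouring regions described here had no dKO 3 peak, by the rule. Of all shared regions within 10 kb, the main fit called 601 higher and 876 lower.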

How the data were processed

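ATAC-seq libraries of HNF4a-positive liver nuclei, 3 control and 3 dKO, were analysed as deposited peak lists, 1 per library, called separately and not on pooled replicates, per the file headers. Trim Galore 0.6.4, HOMER 4.11, SAMtools 1.10, Picard and the build mm10 are named in the submitters' processing notes. Aligner, filters, any Tn5 shift and the options of the peak finder: not given in the sources used here. For each peak the authors' lists hold a normalized tag count (a signal scaled to library depth by the authors), a peak score, a focus ratio that is a fraction, a ratio called fold over the local surroundings, its p-value and a clonal fold, per the file headers. The total depth is unknown, so no interval from read counts is given.

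Peaks of chromosomes 1 to 19 and X were merged where they shared 1 bp (17 to 24 chromosome Y peaks per library were left out), and the value was the highest normalized tag count of a library in the region. Coordinates are mm10 as the files give them. For gene names, the protein-coding gene whose span lay nearest, up to 50 kb away, was taken from a RefSeq table of GRCm38.p6, which gives no strand, exons or UTRs, so position within a gene was not analysed here. All 16 gene lists matched in full. Of the marker names, Trbc2 did not match and Tf and Trf are 1 gene. Promoter windows covered 79.9% of 21631 protein-coding genes.

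Values of regions with a peak in all 6 lists were taken as log2(value + 1), centred on each library's median, and tested by limma 3.58.1 with a trend (R 4.3.3), group as the only term, 2-sided, with Benjamini-Hochberg adjustment and a threshold of 0.05. The scale understates the change of weak regions. Labels do not say that libraries are separate animals, so p-values measure the spread between libraries. The code was checked on simulated data. The named regions are the 10 highest by the lower dKO value, those of the 5 genes with the most regions, the highest of each gene list, the 5 highest within 1 kb of a gene end, the weakest, the 3 regions of all 3 dKO and no control with the lowest dKO 3 value, the 3 largest groups, and the 5 nearby shared regions with the smallest adjusted p. Other regions were named after their values were seen. The regions and gene lists were chosen with earlier results of these data known.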

Additional observations from a re-analysis of the deposited data

How the results depend on the processing

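The number of regions with a peak in dKO 1 and dKO 2 only depended on how a missing peak is defined. It was 4424 with peaks joined within 100 bp, 4522 with all peaks set to 200 bp, and 3061 with peaks joined within 500 bp. A minimum score of 50 left 4045 when set in every list and 3073 when set in dKO 1 and dKO 2, and a normalized tag count of at least 8 in every list left 2798, of which 1946 were among the 4715. Chosen after seeing the data, a local fold of at least 6 left 3350 (in every list) or 1487 (in dKO 1 and dKO 2), and requiring no peak of dKO 3 or a control within 1 kb left 2564. Leaving out 1 library drops a condition of the rule and gave 4852 (without control 3) to 10446 (without dKO 2), with 9845 without control 1 and 7177 without dKO 1. Summing peaks left the medians of 8.74 and 6.9, and linking within 10 kb linked 3808 in place of 4285 regions.

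Among regions called in all 6 libraries, no centring gave 2562 higher and 4655 lower. Leaving out 1 library gave 1257 to 5174 higher and 1402 to 8123 lower, with 1257 and 1402 without dKO 2 and 1633 and 2061 without dKO 1. Near the regions described, no centring gave 371 higher, quantile normalization 568 lower, leave-one-out 196 to 717 higher and 212 to 1174 lower, a limit of 2 kb 188 higher and 369 lower, and one of 50 kb 1962 and 2247. The labels do not say that replicate numbers mark pairs, and deviations of same-numbered libraries correlated at 0.15, -0.03 and 0.23. With a replicate block, 749 were higher and 1044 lower near the regions, and 5417 and 7384 over all. With peak width as a term they were 612 and 860. The 5 nearby shared regions named kept direction and call in all 58 refits that included them, with a highest adjusted p of 0.0113. The number of tags behind a peak limits the weak regions most, and library depth itself is unknown.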
